A study of Mus musculus with 8 samples.

Results

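Solute carriers are the membrane proteins that move amino acids, sugars, metals, nucleosides, vitamins and ions across the plasma membrane and the membranes of organelles. The genes described here are the rows of the expression table whose symbol begins with Slc and a number, without Slc2a1, Slc2a3, Slc16a3 and Slc40a1. They were found by symbol alone, and 240 of the 13204 genes in the table met the rule, in 46 carrier families. Of these, 208 had at least 1 RPKM (reads scaled to exon length in kilobases and to library depth) in at least 4 libraries and were tested. The other 32 reached at most 6.43 RPKM in any library, the highest value being that of Slc5a12, and 2 of them were listed at 0 in some library. Among the members, Slc9a3r1, Slc9a3r2, Slc4a1ap and Slc7a6os share the symbol but are not carriers.

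The cells were OT-I T cells, mouse CD8 T cells with 1 transgenic receptor, specific for a peptide of ovalbumin, transferred into mice that received a skin graft expressing ovalbumin a day later. On day 14 after grafting, CD44hi Thy1.1+ CD8+ spleen cells were sorted into 4 FcgRIIB-positive and 4 FcgRIIB-negative samples of 1000 cells each. FcgRIIB binds the Fc end of IgG antibodies and inhibits the cell that carries it. Positive and negative cells with the same replicate number came from the same pool of 3 spleens, so the 4 replicates are 4 pairs. The labels give no age, sex or host strain. Cells of both groups came from grafted hosts and carry the OT-I receptor, and no sample without a graft was analysed here.

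A resting T cell keeps uptake low, and an activated one raises the carriers for amino acids, lactate, nucleosides and iron as it grows and divides. Phagocytes rely on a different set, since they take apart engulfed cells and microbes in phagosomes and lysosomes and export the iron, haem, nucleosides and amino acids released there. Carrier families are numbered by sequence, and the number is only a guide to the kind of substrate. Family 25 is known for the inner mitochondrial membrane, family 35 for nucleotide sugars, and families 30 and 39 for zinc. The classes used here follow the family number, so single members can differ from the name of their class.

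Library depth lay between 3060000 reads in negative replicate 4 and 22010000 reads in positive replicate 2, and in each group the deepest libraries were replicates 1 and 2. Negative replicate 4 also had higher values among weakly expressed genes: the lower quartile of the tested solute carriers was 4.44 RPKM there and 0.948 to 1.61 RPKM in the other negative libraries. Of 15 T cell markers 14 were in the table, none was at 0 in any library, and their summed level was 2137 to 4820 RPKM in positive and 5600 to 9339 in negative libraries. Markers of other spleen cells were present as well. The 12 dendritic cell markers summed to 743 to 1673 RPKM in positive and 245 to 559 in negative libraries, and the 12 macrophage markers to 1800 to 2475 RPKM in positive and 186 to 1259 in negative libraries. The 6 basophil and mast cell markers summed to 43.98 to 1253 RPKM in positive and 3.49 to 34.7 in negative libraries, with Mcpt8 and Fcer1a at 0 in some library. The 6 erythroid markers found summed to 2747 to 14571 RPKM in positive and 2271 to 5219 in negative libraries, the 7 B cell and plasma cell markers to 448 to 980 in positive and 78.2 to 844 in negative libraries, and the 4 neutrophil markers to 1.68 to 626 in positive and 137 to 1917 in negative libraries. In bulk libraries, fewer cells of a type and less RNA per cell cannot be told apart, and the part of these other cells in each result below was not tested.

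**Figure D1:**
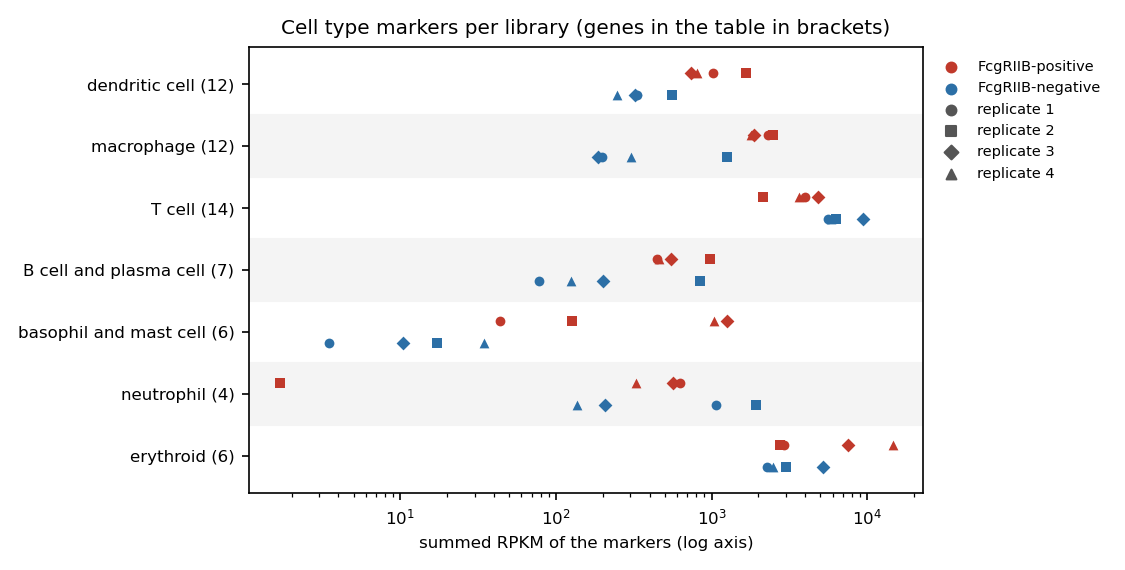
Summed RPKM of each cell type marker list (log axis) in the 4 FcgRIIB-positive libraries (red, upper row of each list) and the 4 FcgRIIB-negative libraries (blue, lower row), with symbol shapes for replicates. Dendritic cell, macrophage and basophil sums were higher in every positive library than in every negative one, and T cell sums were lower.

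Single solute carriers differed between the groups, while the share called lay near that of all genes. In the limma fit with the replicate as a block, 18 of 208 members tested were higher in FcgRIIB-positive cells and 8 were lower (adjusted p under 0.05 over all genes tested). Over all 11946 genes tested, 7.22% were higher and 3.85% were lower, beside 8.65% and 3.85% of the solute carriers. The median log2 fold change was 0.00 over the members and -0.11 over all genes tested, on the log2(RPKM + 1) scale. The summed level of all 240 members was 3172 ± 731 RPKM over the positive libraries and 3356 ± 418 over the negative ones (mean ± SD, n = 4 each, as in all such values here). Every positive library lay above every negative one for 10 members (background 4.61%), and below for 2 members (background 4.15%), the non-carriers Slc4a1ap and Slc7a6os, neither of which was called. Higher in 4 of 4 pairs were 29 members, 13.9% of those tested (background 10.3%), and lower in 4 of 4 pairs were 27 (background 19.8%).

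Without the block the fit called 5 members higher (background 3.03%) and none lower (background 0.268%), and with the block 46 of 208 members had an unadjusted p under 0.05, beside 2776 of all 11946 genes tested. The 5 were Slc8b1, Slc11a1, Slc7a7, Slc46a3 and Slc31a2. They and Slc35c2 kept their call with each of the 8 libraries left out in turn, which none of the 8 lower members did. Leaving out a library also takes its pair out of the comparison. Without negative replicate 4 or positive replicate 4 the counts were 26 higher and 4 lower. Over all 11946 genes tested they were 1246 and 456, or 1243 and 456. Without positive replicate 1 members gave 7 and 2 (all genes 574 and 270). Leaving out negative replicate 1 gave 7 and 1 (all genes 564 and 236). Without positive replicate 3 they were 10 and 2 (all genes 636 and 180). Leaving out negative replicate 3 gave 8 and 1 (all genes 618 and 160). Without positive or negative replicate 2 they were 13 and 2 or 14 and 2 (all genes 798 and 372, or 826 and 348).

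**Figure D2:**
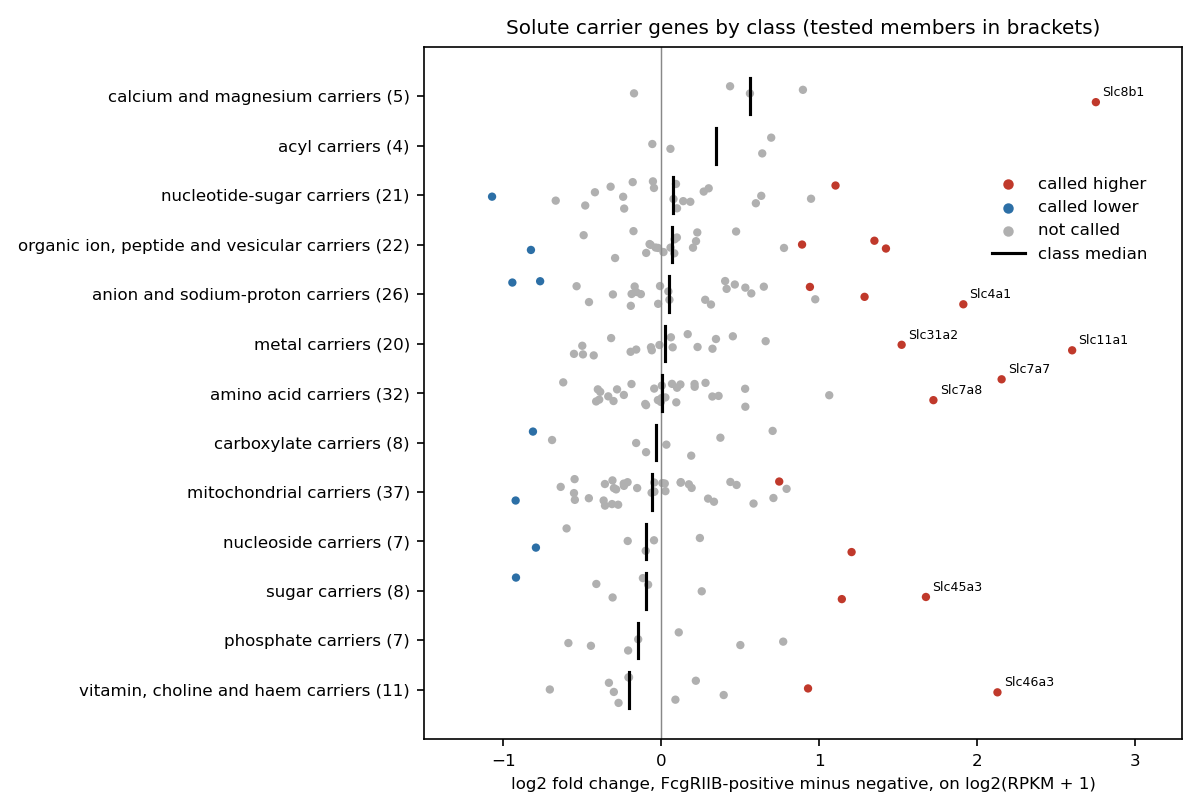
Log2 fold change on the log2(RPKM + 1) scale, FcgRIIB-positive minus negative (x axis), of the 208 tested members in 13 substrate classes (rows), red where called higher, blue where called lower and grey where not called, with black bars for class medians. The class medians lie between -0.20 and 0.56, while called members, found in 11 classes, reach from -1.07 to 2.75.

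The increases were unequal among the pairs. Over the 18 members called higher, the median difference of log2(RPKM + 1) within pairs 1 to 4 was 2.16, 2.25, 1.196 and 0.36, against -0.05, -0.11, 0.02 and -0.26 over all genes tested. In 10 of the 18, negative replicate 4 held the highest value of the negative libraries. The 8 members called lower had median differences of -0.65, -1.17, -0.95 and -0.62 in the same pairs.

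**Figure D3:**
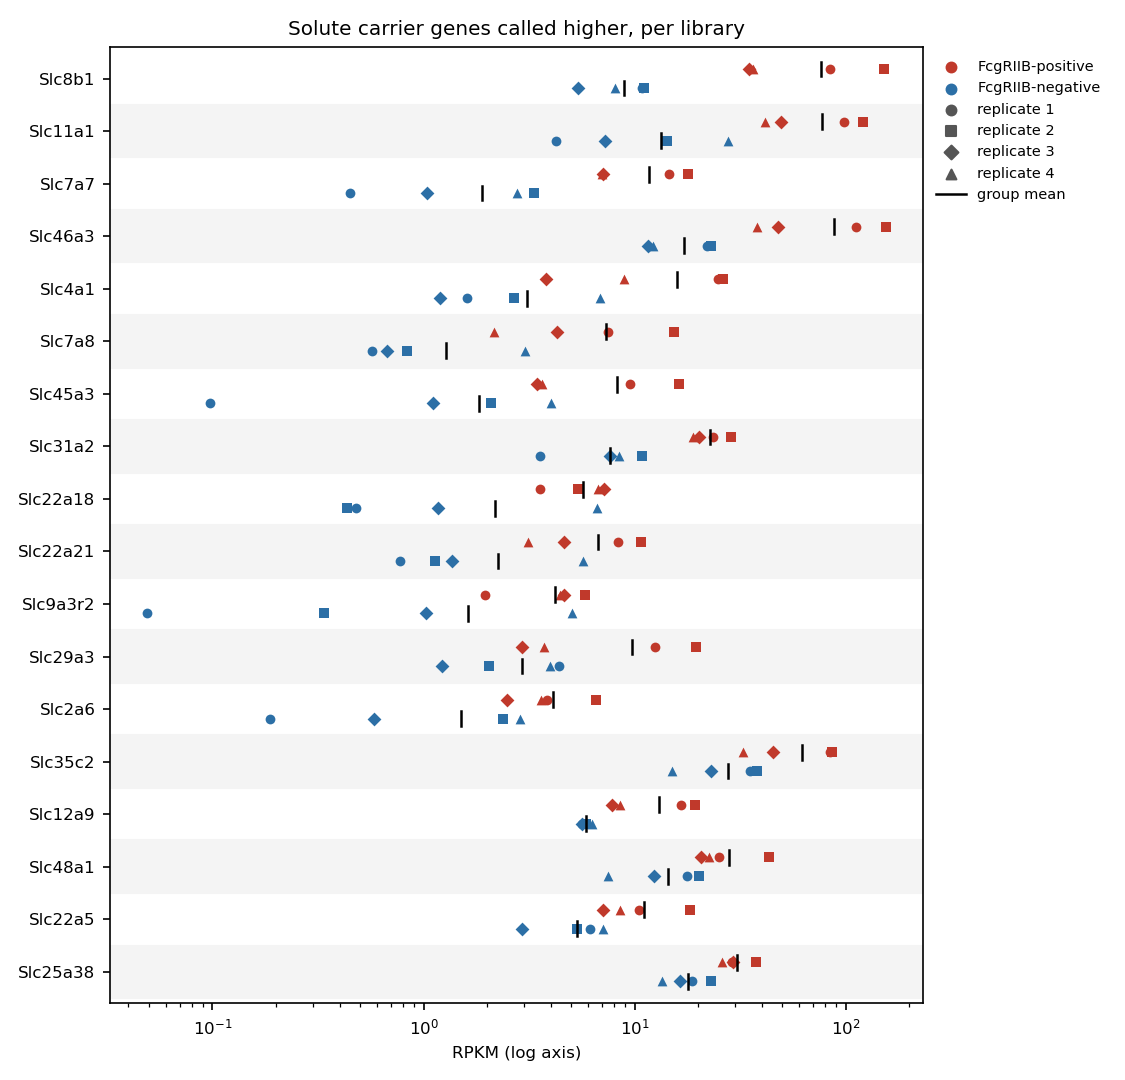
RPKM (log axis) of the 18 members called higher, in the 4 FcgRIIB-positive libraries (red, upper row of each gene) and the 4 FcgRIIB-negative libraries (blue, lower row), with symbol shapes for replicates and black bars for group means. The groups do not overlap for 9 of the 18 genes, among them Slc8b1, Slc11a1, Slc7a7 and Slc46a3.

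Metal carriers were led by Slc11a1 (Entrez 18173), the proton-coupled carrier of iron and manganese in the phagosome membrane of macrophages. It had 97.9, 121, 49.3 and 41.6 RPKM in positive replicates 1 to 4, against 4.25, 14.2, 7.25 and 27.7 RPKM in negative replicates 1 to 4. All positive libraries lay above all negative ones, with the narrowest gap in pair 4. The log2 fold change was 2.60 (SE 0.36, adjusted p = 1.78e-05 by limma). Its relative Slc11a2, which imports iron at the cell surface and from endosomes, went the other way in each pair without passing the test, at 12.7 ± 4.91 RPKM in positive and 17.6 ± 6.91 in negative cells (log2 fold change -0.43, adjusted p = 0.311 by limma).

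Slc31a2 (Entrez 20530), a copper carrier of endosomes and lysosomes, had 23.5, 28.5, 20.1 and 18.8 RPKM in positive cells, against 3.58, 10.8, 7.66 and 8.47 RPKM in negative cells. The groups were apart and the change was 2.87-fold on the RPKM + 1 scale (log2 fold change 1.52, SE 0.27, adjusted p = 0.000315 by limma). Slc31a1, the copper importer of the cell surface, was at 6.42 RPKM in positive and 4.47 in negative cells and did not pass. None of the 6 zinc exporters of family 30 and none of the 10 zinc importers of family 39 that were tested passed. Slc39a7, which releases zinc from the endoplasmic reticulum and was the most abundant of them, was at 37.5 ± 17.1 RPKM in positive and 41.5 ± 17.1 in negative cells. Over the class of 20 tested metal carriers, 2 were higher and none lower, with a median log2 fold change of 0.03. Macrophage markers were higher in the same libraries as Slc11a1 and Slc31a2 (12 of 12 called, median 2.89). So were dendritic cell markers (11 of 12, median 3.70) and basophil and mast cell markers (6 of 6, median 2.71). Which cells these 2 carriers came from was not tested.

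Carriers of vitamins, choline and haem counted 11 tested members, of which 2 were higher and none lower. Slc46a3 (Entrez 71706), a lysosomal membrane carrier known in human cells for releasing the breakdown products of antibody-drug conjugates, had 112, 156, 47.8 and 37.8 RPKM in positive cells, against 21.9, 23.01, 11.6 and 12.2 RPKM in negative cells. Every positive library was above every negative one, and levels in replicates 1 and 2 were higher than in replicates 3 and 4 in both groups. Its log2 fold change was 2.13 (SE 0.24, adjusted p = 1.1e-06 by limma).

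Slc48a1 (Entrez 67739), which moves haem out of the phagolysosome, had 25.1, 43.3, 20.7 and 22.6 RPKM in positive cells, against 17.7, 20.2, 12.4 and 7.45 RPKM in negative cells. The groups were just apart, and the log2 fold change was 0.93 (SE 0.25, adjusted p = 0.0139 by limma). The call was lost without either library of pair 4 or negative replicate 3 (adjusted p up to 0.115). Slc44a2, a choline carrier and the third most abundant member, varied more between replicates than between groups, with 198, 166, 43.3 and 39.8 RPKM in positive and 255, 144, 72.4 and 49.6 RPKM in negative cells. Slc19a1, the reduced folate carrier, had 4.36 ± 1.90 RPKM in positive and 7.58 ± 2.44 in negative cells and did not pass (log2 fold change -0.71, adjusted p = 0.119 by limma). Its value was below that of its pair in 4 of 4 pairs.

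Slc8b1 (Entrez 170756) had the largest fold change of all members, 6.75-fold on the RPKM + 1 scale. It belongs to the sodium-calcium exchanger family and removes calcium from the mitochondrial matrix. Positive cells had 83.8, 152, 34.7 and 36.3 RPKM, against 10.9, 11.1, 5.37 and 8.11 RPKM in negative cells. The lowest positive library was far above the highest negative one (log2 fold change 2.75, SE 0.26, adjusted p = 7.48e-08 by limma). The call held without the block (adjusted p = 0.00706 by limma). The magnesium carriers Slc41a1, Slc41a2 and Slc41a3 had log2 fold changes of 0.44, 0.90 and 0.56, none past the threshold. Dendritic cell, macrophage, and basophil and mast cell markers were higher in the positive libraries too (medians 3.70, 2.89 and 2.71).

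Amino acid carriers were the largest class, with 42 members and 32 tested, of which 2 were higher and none lower (median log2 fold change 0.00). Both called members are light chains that pair with the heavy chain of Slc3a2. Slc7a7 (Entrez 20540), which exchanges cationic for neutral amino acids and whose human gene is mutated in lysinuric protein intolerance, had 14.5, 17.9, 7.10 and 7.04 RPKM in positive cells, against 0.448, 3.34, 1.04 and 2.76 RPKM in negative cells. The groups did not overlap, and the log2 fold change was 2.16 (SE 0.33, adjusted p = 6.99e-05 by limma).

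Slc7a8 (Entrez 50934), an exchanger of large neutral amino acids, had 7.46, 15.4, 4.31 and 2.16 RPKM in positive cells, against 0.572, 0.838, 0.670 and 3.04 RPKM in negative cells. It was higher in 3 of 4 pairs and lower in pair 4. The log2 fold change was 1.72 (SE 0.41, adjusted p = 0.00665 by limma), and the call was lost without either library of pair 1 or negative replicate 3 (adjusted p up to 0.117). The heavy chain itself, Slc3a2 (Entrez 17254), had 87.9 ± 15.4 RPKM in positive and 81.9 ± 13.9 in negative cells. It lay slightly higher in 4 of 4 pairs and did not pass (log2 fold change 0.10, SE 0.23).

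The carriers that bring glutamine and essential amino acids into activated T cells did not pass. Slc1a5, the sodium-coupled carrier of glutamine and other neutral amino acids, had 65.4, 102, 68.6 and 58.2 RPKM in positive cells, against 140.4, 144, 99.5 and 75.2 RPKM in negative cells. It was below its pair in 4 of 4 pairs (log2 fold change -0.62, SE 0.24, adjusted p = 0.106 by limma). Slc7a5, the light chain for large neutral amino acids in T cells, was at 6.37 ± 2.41 RPKM in positive and 6.30 ± 2.53 in negative cells, and Slc38a2, a sodium-coupled carrier of small neutral amino acids, at 40.4 ± 11.6 RPKM in positive and 43 ± 11.4 in negative cells. Slc38a1 of the same family was at 7.78 RPKM in positive and 9.65 in negative cells, and Slc7a1, the cationic amino acid importer, at 3.26 RPKM in positive and 4.13 in negative cells. Slc38a9, which reports lysosomal arginine to the growth regulator mTORC1, was at 2.25 RPKM in positive and 2.27 in negative cells. Slc6a6, the taurine carrier, was at 13.7 ± 7.81 RPKM in positive and 8.43 ± 1.69 in negative cells, above its pair in 4 of 4 pairs (log2 fold change 0.53, adjusted p = 0.257 by limma).

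**Figure D4:**
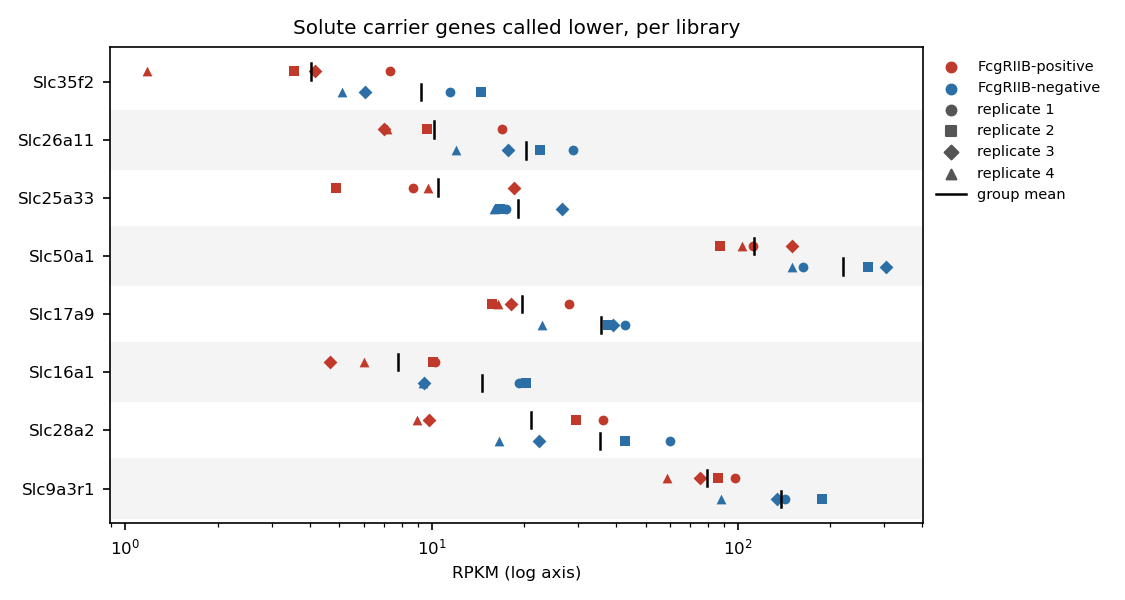
RPKM (log axis) of the 8 members called lower, in the 4 FcgRIIB-positive libraries (red, upper row of each gene) and the 4 FcgRIIB-negative libraries (blue, lower row), with symbol shapes for replicates and black bars for group means. Every gene was lower in 4 of 4 pairs in the deposited scale while the groups overlap. Slc16a1, Slc17a9, Slc28a2 and Slc9a3r1 turn to slightly positive differences when libraries are scaled to T cell markers, which moves the median over all genes from -0.11 to 0.63.

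All 8 members called lower were lower in 4 of 4 pairs, and in none were the groups apart. Scaling the libraries to the T cell markers ended all 8 calls and turned the sign of Slc16a1, Slc17a9, Slc28a2 and Slc9a3r1, with log2 fold changes of 0.025, 0.062, 0.087 and 0.15. Slc35f2, Slc26a11, Slc25a33 and Slc50a1 stayed below 0 there. Over all 11946 genes tested this scaling moved the median from -0.11 to 0.63 and left 16 called lower, against 460 before. The loss of these 8 calls was therefore not particular to them. Dividing by a marker level that was on average lower in positive libraries raises the values of those libraries by construction. Why the markers were lower was not tested. The T cell markers were lower in the same positive libraries (6 of 14 called, median -0.96). Median ratio scaling divides each library by its median ratio to the genes' geometric means. It also ended the calls of Slc16a1, Slc17a9, Slc28a2, Slc50a1 and Slc9a3r1, leaving 3 members called lower. Over all genes tested it left 354 called lower, against 460 before.

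Sugar carriers held members that moved in opposite directions, with 2 of 8 tested higher and 1 lower. Slc50a1 (Entrez 19729), a sugar uniporter of the plasma membrane and Golgi and the second most abundant member, had 112, 87.4, 150.2 and 103 RPKM in positive cells, against 163, 266, 305 and 149.8 RPKM in negative cells. Only positive replicate 3 reached the negative range. The log2 fold change was -0.92 (SE 0.27, adjusted p = 0.0255 by limma), and the call was lost without either library of pairs 1, 2 and 3 (adjusted p up to 0.126).

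Slc2a6 (Entrez 227659), a hexose carrier of lysosomal membranes, had 3.83, 6.57, 2.49 and 3.60 RPKM in positive cells, against 0.188, 2.38, 0.581 and 2.87 RPKM in negative cells. It was higher in 4 of 4 pairs with overlapping groups (log2 fold change 1.14, SE 0.33, adjusted p = 0.0276 by limma), and the call was lost without either library of pairs 1, 2 and 3 (adjusted p up to 0.257). Slc45a3 (Entrez 212980), a putative sugar carrier known from human prostate, had 9.52, 16.3, 3.45 and 3.63 RPKM in positive cells, against 0.097, 2.08, 1.11 and 4.01 RPKM in negative cells. It was lower in pair 4 and higher in the others (log2 fold change 1.68, SE 0.41, adjusted p = 0.00732 by limma), and was not called without either library of pair 1 (adjusted p up to 0.163). Over the whole class the summed level was 145 ± 24.7 RPKM in positive and 248 ± 69.8 in negative cells, most of it from Slc50a1.

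Among 8 carboxylate carriers tested, 1 was lower and none higher. Slc16a1 (Entrez 20501), the carrier of lactate and pyruvate that dividing T cells use, had 10.2, 10.1, 4.65 and 6.00 RPKM in positive cells, against 19.3, 20.4, 9.42 and 9.39 RPKM in negative cells. It was lower in each pair, but the groups overlapped, with replicates 3 and 4 low in both (log2 fold change -0.81, SE 0.25, adjusted p = 0.0394 by limma, and 0.025 in log2 fold change after scaling to T cell markers). The call did not hold with any library left out (adjusted p 0.0553 to 0.171). Slc16a6 and Slc16a9 were above their pair in 4 of 4 pairs without passing, with log2 fold changes of 0.19 and 0.71.

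Of 7 nucleoside carriers tested, 1 was higher and 1 lower. Slc28a2 (Entrez 269346), which takes up purine nucleosides with sodium at the cell surface, had 36.3, 29.5, 9.84 and 8.95 RPKM in positive cells, against 60.2, 42.8, 22.5 and 16.6 RPKM in negative cells. All 4 pairs were lower (log2 fold change -0.79, SE 0.23, adjusted p = 0.0277 by limma, and 0.087 in log2 fold change after scaling to T cell markers), and the call was lost without either library of pairs 1, 3 and 4 (adjusted p up to 0.187). Slc29a3 (Entrez 71279), which lets nucleosides out of the lysosome, had 12.5, 19.6, 2.93 and 3.73 RPKM in positive cells, against 4.40, 2.04, 1.23 and 3.99 RPKM in negative cells. The increase came from replicates 1 to 3 and was absent in pair 4 (log2 fold change 1.21, SE 0.36, adjusted p = 0.0312 by limma). It was not called without either library of pairs 1, 2 and 3 (adjusted p up to 0.235). Slc29a1, the equilibrative carrier of the plasma membrane, was at 28.4 ± 13.7 RPKM in positive and 41.4 ± 13.7 in negative cells and did not pass.

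The class of nucleotide-sugar carriers, which feed glycosylation in the Golgi and the endoplasmic reticulum, had 1 of 21 tested members higher and 1 lower. It holds all of family 35 by number, and not every member moves nucleotide sugars. Slc35c2 (Entrez 228875), a Golgi protein that promotes fucosylation of Notch, had 84.3, 86.4, 45.1 and 32.7 RPKM in positive cells, against 35.2, 38.1, 22.9 and 15.01 RPKM in negative cells. Each positive library lay above its pair, by a similar factor in all 4, while the groups overlapped, with replicates 3 and 4 low in both (log2 fold change 1.10, SE 0.23, adjusted p = 0.00155 by limma). Slc35f2 (Entrez 72022) had 7.29, 3.55, 4.16 and 1.18 RPKM in positive cells, against 11.4, 14.4, 6.04 and 5.11 RPKM in negative cells. It had the largest decrease of all members (log2 fold change -1.07, SE 0.30, adjusted p = 0.0214 by limma), and the call was lost without either library of pairs 2 and 4 or negative replicate 1 (adjusted p up to 0.0807). Slc35b1, which exchanges ATP and ADP across the endoplasmic reticulum membrane, was the most abundant of the class that was not called, at 55.6 ± 15.1 RPKM in positive and 53.7 ± 19.5 in negative cells.

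Mitochondrial carriers of family 25 made up 37 of the members tested, and 1 was higher and 1 lower, with a median log2 fold change of -0.06. Slc25a38 (Entrez 208638), which brings glycine into mitochondria for haem synthesis, had 29.03, 37.7, 29.3 and 25.8 RPKM in positive cells, against 18.7, 22.9, 16.4 and 13.5 RPKM in negative cells. The groups did not overlap (log2 fold change 0.75, SE 0.23, adjusted p = 0.0365 by limma), and the call was lost without either library of pairs 1, 3 and 4 (adjusted p up to 0.154). Erythroid markers, whose cells make haem, were higher as well for 3 of 6 genes. Slc25a33 (Entrez 70556), a carrier of pyrimidine nucleotides, had 8.67, 4.87, 18.6 and 9.73 RPKM in positive cells, against 17.4, 16.7, 26.6 and 16.04 RPKM in negative cells. All 4 pairs were lower (log2 fold change -0.92, SE 0.26, adjusted p = 0.0204 by limma), and the gene was not called without either library of pairs 1 and 2 or negative replicate 3 (adjusted p up to 0.0967).

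The most abundant members of family 25, which serve oxidative phosphorylation, did not pass. Slc25a5 (Entrez 11740), the ADP/ATP exchanger of dividing cells, was the most abundant of all members, with 606, 519.8, 633 and 451 RPKM in positive cells, against 541, 784, 964 and 506 RPKM in negative cells. It held 13.3% to 22.99% of the summed solute carrier level in positive libraries and 15.4% to 28.8% in negative ones (log2 fold change -0.30, SE 0.33, adjusted p = 0.678 by limma). The related exchanger Slc25a4 was at 91.5 ± 12.1 RPKM in positive and 129.8 ± 37.1 in negative cells (log2 fold change -0.46, adjusted p = 0.281 by limma). The 2 genes are close in sequence, so their values are uncertain where reads were shared. Slc25a11, the oxoglutarate carrier, was at 70.17 RPKM in positive and 88.65 in negative cells, and Slc25a3, the phosphate carrier, at 45.9 RPKM in positive and 59.8 in negative cells. Slc25a10, the dicarboxylate carrier, had groups that did not overlap, at 8.88 ± 1.44 RPKM in positive and 4.81 ± 1.47 in negative cells, and missed the threshold (adjusted p = 0.0635 by limma). Slc25a20, which brings acylcarnitines to fatty acid oxidation, was at 38.03 ± 12.8 RPKM in positive and 30.2 ± 8.60 in negative cells, above its pair in 4 of 4 pairs, and did not pass.

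**Figure D5:**
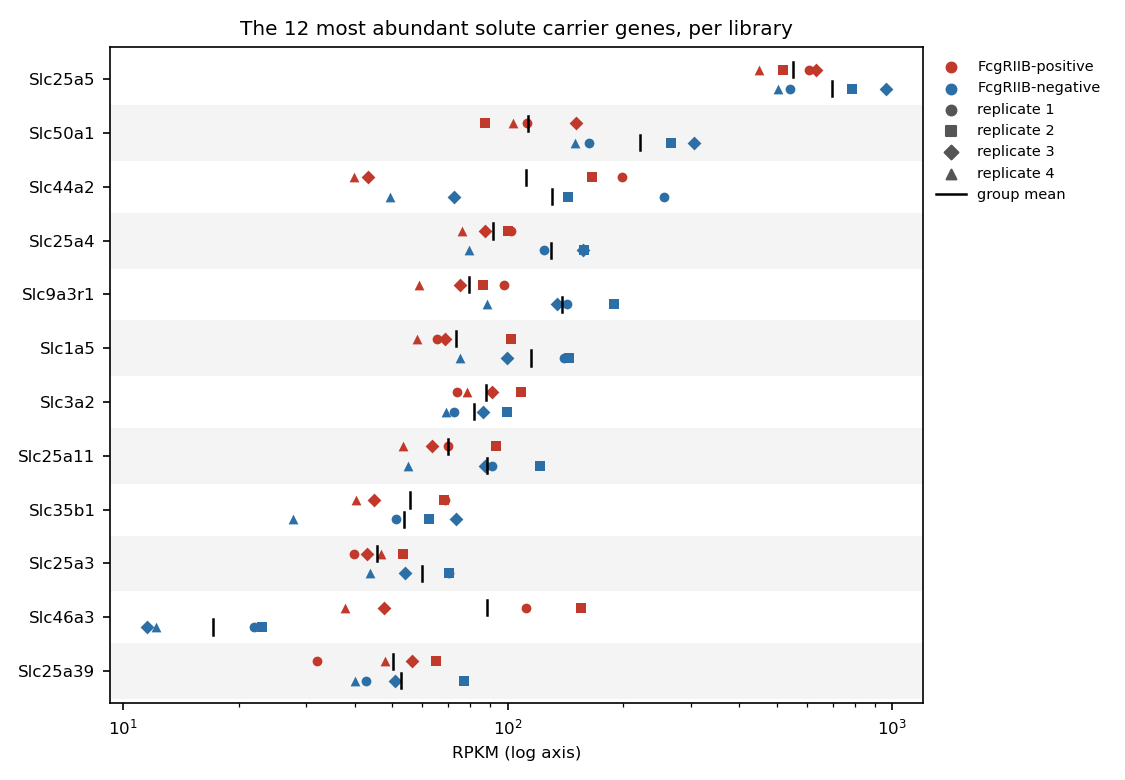
RPKM (log axis) of the 12 most abundant members, in the 4 FcgRIIB-positive libraries (red, upper row of each gene) and the 4 FcgRIIB-negative libraries (blue, lower row), with symbol shapes for replicates and black bars for group means. Slc25a5 lies above all others at 451 to 964 RPKM, and the ranges of the genes after Slc50a1 overlap their neighbours.

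The order of levels was led by Slc25a5 at a mean of 626 RPKM over the 8 libraries, followed by Slc50a1 at 167, Slc44a2 at 121, Slc25a4 at 111, Slc9a3r1 at 109, Slc1a5 at 94.2 and Slc3a2 at 84.9 RPKM. From Slc50a1 on, each gene's range over the libraries overlapped that of the next. The 5 most abundant members together held 24.5% to 35.9% of the summed level in positive libraries and 31.3% to 48.9% in negative ones.

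Carriers of anions and the sodium-proton exchangers had 3 of 26 tested members higher and 2 lower. Slc4a1 (Entrez 20533), the anion exchanger known as band 3 of the erythrocyte membrane, had 24.9, 26.1, 3.81 and 8.86 RPKM in positive cells, against 1.60, 2.68, 1.19 and 6.83 RPKM in negative cells. It was higher in 4 of 4 pairs, most in pairs 1 and 2 (log2 fold change 1.91, SE 0.38, adjusted p = 0.0012 by limma), and missed the threshold without either library of pair 1 (adjusted p up to 0.0543). The globin gene Hbb-b1 was highest in positive replicates 3 and 4, where Slc4a1 was lowest among positive cells.

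Slc12a9 (Entrez 83704), a member of the cation-chloride family, had 16.6, 19.4, 7.84 and 8.51 RPKM in positive cells, against 5.63, 5.90, 5.61 and 6.30 RPKM in negative cells. The groups did not overlap (log2 fold change 0.94, SE 0.28, adjusted p = 0.0324 by limma), and the call was lost without either library of pairs 1, 2 and 3 (adjusted p up to 0.194). Slc26a11 (Entrez 268512), a sulphate carrier, had 16.95, 9.64, 6.997 and 7.17 RPKM in positive cells, against 28.9, 22.5, 17.7 and 11.97 RPKM in negative cells. Each pair was lower (log2 fold change -0.94, SE 0.25, adjusted p = 0.0127 by limma), and the gene was not called without either library of pair 3 (adjusted p up to 0.12). Slc9a9, a sodium-proton exchanger of endosomes and the most abundant exchanger of family 9, was at 36.01 ± 25.5 RPKM in positive and 22.02 ± 12.3 in negative cells and did not pass.

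Both scaffold proteins named for sodium-proton exchanger regulation were called, in opposite directions. Slc9a3r1 (Entrez 26941), which links membrane proteins to the actin cytoskeleton through ezrin, had 97.7, 86.3, 75.1 and 58.9 RPKM in positive cells, against 142, 189, 134 and 88.3 RPKM in negative cells. It was lower in 4 of 4 pairs (log2 fold change -0.77, SE 0.24, adjusted p = 0.0424 by limma, and 0.15 in log2 fold change after scaling to T cell markers), and was not called with any library left out (adjusted p 0.0792 to 0.166). Slc9a3r2 (Entrez 65962) had 1.96, 5.80, 4.63 and 4.42 RPKM in positive cells, against 0.049, 0.339, 1.02 and 5.07 RPKM in negative cells. It was higher in pairs 1 to 3 and lower in pair 4 (log2 fold change 1.29, SE 0.36, adjusted p = 0.0229 by limma), and the call was lost without either library of pairs 1, 2 and 3 (adjusted p up to 0.198). Slc9a3r2 was named after its values were seen.

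Carriers of organic ions and peptides and the vesicular carriers had 3 of 22 tested members higher and 1 lower. The higher ones were all of family 22, which had 8 members tested. Slc22a18 (Entrez 18400), an imprinted gene, had 3.54, 5.36, 7.18 and 6.71 RPKM in positive cells, against 0.479, 0.435, 1.17 and 6.64 RPKM in negative cells. Pair 4 showed almost no difference (log2 fold change 1.42, SE 0.35, adjusted p = 0.00795 by limma), and the call was lost without either library of pairs 1 and 3 (adjusted p up to 0.102). Slc22a5 (Entrez 20520), the carnitine importer, and Slc22a21 (Entrez 56517), a carnitine carrier related to it, were at 11.1 ± 4.97 against 5.36 ± 1.77 RPKM and at 6.70 ± 3.46 against 2.24 ± 2.32 RPKM in positive against negative cells. On the log2 scale the differences came to 0.89 and 1.35 (adjusted p = 0.0451 and 0.0315 by limma). Both are uncertain where reads of the related copies were shared, and both lost their call in most fits with a library left out (in 6 and 5 of 8, with adjusted p up to 0.202 and 0.286). Slc22a21 was higher in pairs 1 to 3 and lower in pair 4, at 3.115 RPKM in positive and 5.70 in negative cells. A pseudocount of 5 ended both calls, as did a pseudocount of 0.1 for Slc22a5 and quantile normalization for Slc22a21. These 2, like Slc7a8 and Slc48a1, were named after their values were seen.

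Slc17a9 (Entrez 228993), which loads ATP into vesicles, had 28.2, 15.8, 18.2 and 16.5 RPKM in positive cells, against 42.8, 37.7, 39.1 and 22.9 RPKM in negative cells. Only positive replicate 1 reached the negative range (log2 fold change -0.83, SE 0.24, adjusted p = 0.0245 by limma, and 0.062 in log2 fold change after scaling to T cell markers). The call was lost without either library of pairs 1, 2 and 3 (adjusted p up to 0.16). The peptide and histidine carriers Slc15a3 and Slc15a4 of endosomes and lysosomes did not pass, Slc15a3 at 1.66 RPKM in positive and 1.06 in negative cells and Slc15a4 at 7.43 RPKM in positive and 5.98 in negative cells.

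No phosphate carrier (7 tested) and no acyl carrier (4 tested) passed. Slc20a1, the sodium-phosphate importer, had 31.5, 20.8, 6.44 and 7.51 RPKM in positive cells, against 44.1, 13.5, 9.38 and 8.89 RPKM in negative cells, a spread that followed the replicates more than the groups. Slc37a4, which moves glucose 6-phosphate into the endoplasmic reticulum, was below its pair in 4 of 4 pairs at 8.85 ± 2.73 RPKM in positive and 13.7 ± 3.89 in negative cells (log2 fold change -0.59, adjusted p = 0.146 by limma). Slc33a1, which brings acetyl-CoA into the endoplasmic reticulum, was above its pair in 4 of 4 pairs at 9.41 ± 6.63 RPKM in positive and 4.96 ± 2.12 in negative cells (log2 fold change 0.70, adjusted p = 0.146 by limma).

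Of 26 related carriers and transporter partners without an Slc symbol that were tested, 3 were higher and 1 lower, with a median log2 fold change of 0.02. Emb, the embigin chain that escorts lactate carriers of family 16 to the membrane, had 104, 70.2, 70.8 and 53.4 RPKM in positive cells, against 153, 190.4, 189 and 91.5 RPKM in negative cells. It was lower in 4 of 4 pairs (log2 fold change -1.04, SE 0.25, adjusted p = 0.00727 by limma), with a log2 fold change of -0.12 after scaling to T cell markers and no call without either library of pair 3 (adjusted p up to 0.0836). Bsg, basigin, the other such chain, was at 109 ± 25.8 RPKM in positive and 132 ± 25.9 in negative cells and did not pass. Mfsd12, which imports cysteine into lysosomes and melanosomes, Spns3 and the organic anion carrier Slco2b1 had log2 fold changes of 1.32, 1.43 and 1.44 (adjusted p = 0.0118, 0.025 and 0.0327 by limma). All 3 lost their call without either library of pair 1 (adjusted p up to 0.0673, 0.344 and 0.392) or negative replicate 3 (adjusted p 0.101, 0.0545 and 0.082), and the first also without positive replicate 2 or 3 and the last without positive replicate 3.

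Of 21 tested genes of amino acid sensing at the lysosome, 1 was higher and none lower, with a median log2 fold change of 0.01. It was Fnip2, a partner of folliculin, with a log2 fold change of 1.61 (SE 0.41, adjusted p = 0.0114 by limma). Its adjusted p reached 0.156 without either library of pair 1 and was 0.111 without positive replicate 2. The scaffold subunits Lamtor1 to Lamtor5 had log2 fold changes between -0.08 and 0.11 and none passed. Metallothionein Mt1, which binds zinc and copper, had 27.3, 27.7, 226 and 239 RPKM in positive cells, against 6.54, 9.35, 8.04 and 38.1 RPKM in negative cells (log2 fold change 2.66, SE 0.35, adjusted p = 7e-06 by limma). Its high values lay in positive replicates 3 and 4, in which the summed basophil and mast cell markers were also highest. Mcpt8 and Prss34 carried that sum, while Gata2 and Ms4a2 were highest in positive replicate 2. The erythroid sum had the same order (2923, 2747, 7508 and 14571 RPKM in positive replicates 1 to 4). Lamtor2 was also highest in positive replicates 3 and 4, at 98.3, 76, 541 and 707 RPKM in positive replicates 1 to 4. Unlike Mt1, it was raised in negative replicate 3 as well, with 109, 159, 351 and 458 RPKM in negative replicates 1 to 4. Slc11a1 and Slc46a3 were instead highest in positive replicates 1 and 2. The source of the Mt1 values was not tested.

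The promoters below belong to the 3 members with the largest increases and the 2 with the largest decreases among the 20 of 26 called members that the promoter table held, and are shown to set the promoters of both directions side by side. Sequences are from RefSeq on build GRCm38.p6, the 250 bases before the first listed start, 5′ to 3′ on the gene's strand. Capitals mark matches to the motifs searched on both strands.
Slc11a1 (chr1:74374953-74375202, plus strand): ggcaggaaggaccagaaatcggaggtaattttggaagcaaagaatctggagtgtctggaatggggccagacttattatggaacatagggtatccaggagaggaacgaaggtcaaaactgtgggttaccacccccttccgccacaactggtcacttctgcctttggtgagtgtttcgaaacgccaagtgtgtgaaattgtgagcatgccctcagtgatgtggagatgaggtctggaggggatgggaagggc
Slc7a7 (chr14:54417945-54418194, minus strand): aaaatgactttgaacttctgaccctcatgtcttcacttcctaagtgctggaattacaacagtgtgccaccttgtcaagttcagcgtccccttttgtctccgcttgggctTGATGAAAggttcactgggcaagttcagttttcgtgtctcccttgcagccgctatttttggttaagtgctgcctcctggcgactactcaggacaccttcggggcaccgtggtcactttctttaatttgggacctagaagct
Slc46a3 (chr5:147894816-147895065, minus strand): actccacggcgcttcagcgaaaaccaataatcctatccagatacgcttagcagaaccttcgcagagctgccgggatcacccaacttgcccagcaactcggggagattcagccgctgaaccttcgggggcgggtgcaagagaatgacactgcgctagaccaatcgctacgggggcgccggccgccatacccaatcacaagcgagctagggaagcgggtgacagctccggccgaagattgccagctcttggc
Slc35f2 (chr9:53771285-53771534, plus strand): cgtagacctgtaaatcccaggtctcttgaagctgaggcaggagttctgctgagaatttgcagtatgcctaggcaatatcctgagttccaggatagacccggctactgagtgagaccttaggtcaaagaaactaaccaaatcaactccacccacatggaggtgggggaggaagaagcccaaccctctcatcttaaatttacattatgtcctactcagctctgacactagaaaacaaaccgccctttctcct
Slc25a33 (chr4:149774268-149774517, minus strand): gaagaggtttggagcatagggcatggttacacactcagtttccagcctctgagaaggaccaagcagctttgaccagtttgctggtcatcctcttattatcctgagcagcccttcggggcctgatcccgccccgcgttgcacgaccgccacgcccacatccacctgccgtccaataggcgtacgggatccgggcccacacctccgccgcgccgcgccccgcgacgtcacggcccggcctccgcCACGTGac

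The motifs were GAGGAAGT, a form bound by the myeloid factor PU.1, the palindromic E-box CACGTG, read by MYC and by lysosomal gene regulators such as TFEB, and TGATGNAA, a form of the amino acid response element. None overlapped another in these windows. Of the 155 tested members with a promoter in the table, 20 held the E-box (12.9%), compared with 8.65% of the 9490 genes tested that had one. GAGGAAGT was in 3.87% of members' promoters and 2.75% of those of all genes tested, and TGATGNAA in 3.23% and 2.1%. Among called members, the E-box was in 1 of 14 higher and 2 of 6 lower ones, GAGGAAGT in 1 of 14 and none of 6, and TGATGNAA in 1 of 14 and 1 of 6 (Slc7a7 and Slc50a1). The E-box of Slc25a33 begins 8 bases before the start. The other 2 E-boxes are shown with 12 bases on each side.
Slc12a9 (chr5:137333671-137333700, minus strand): acacccgagacgCACGTGgaacggtttggc
Slc16a1 (chr3:104638452-104638481, plus strand): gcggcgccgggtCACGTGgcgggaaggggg
The Slc7a7 window holds TGATGAAA, beginning 141 bases before the start listed first of 5. A match describes the letters alone.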

How the data were processed

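RNA of 8 libraries, 4 per group, was sequenced after SMART-seq v4 amplification and NexteraXT library construction, per the labels' protocols. The authors deposited RPKM per gene with exon lengths, per the file headers. Alignment tool and build, per the submitters' processing notes, were TopHat2 and mm9, while counting, strand and filters are not given in the sources used here. Depths were recovered from the steps of RPKM times length (tolerance 0.1 reads).

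The test was limma 3.58.1 under R 4.3.3 (lmFit, eBayes with trend) on log2(RPKM + 1), two-sided, with the replicate number as a block, over the 11946 genes that reached 1 RPKM in 4 or more libraries (1258 left out). P-values were adjusted by Benjamini-Hochberg with a threshold of 0.05. Fold changes are on this scale and understate those of low genes. Intervals from reads were not used, since amplified reads are not independent molecules.

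The block comes from the series design text (1 spleen pool per replicate). Within pairs 1 to 4, the deviations of both libraries from their group means had correlations of 0.70, 0.41, 0.56 and 0.68 across genes. Each library but positive replicate 2 correlated best with the library of its own number. Members, lists and classes were chosen with earlier results of these data known. Genes named were, among called members with 1 direction in all 4 pairs, the 10 largest in each direction, the smallest p per class and direction (or the most abundant where none was called), and the 5 most abundant. Called members outside this rule (5) and uncalled members given as values were named after their values were seen. Summed levels of classes are given without a test, because the members were chosen with results known. Python 3.11.15 made the summaries. Alternatives were pseudocounts, filters, scalings, subsets of pairs, no block and leaving out each library. All 208 members tested matched the RefSeq names of GRCm38, and 155 had a promoter there.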

Additional observations from a re-analysis of the deposited data

Results flagged for a closer look

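Each group of 4 libraries was examined for a value far from the others, over 62 groups of the named genes. Chance flags about 1 in 20 groups, and 5 were found, all the highest value of the negative libraries. Of these, 3 were in negative replicate 4, the shallowest library: Slc22a18 at 6.64 RPKM with the others at 0.435 to 1.17, Slc22a21 at 5.70 RPKM with the others at 0.776 to 1.36, and Slc7a8 at 3.04 RPKM with the others at 0.572 to 0.838. Slc20a1 was at 44.1 RPKM in negative replicate 1 with the others at 8.89 to 13.5 RPKM. Slc25a33 was at 26.6 RPKM in negative replicate 3 with the others at 16.04 to 17.4 RPKM.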

How the results depend on the processing

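The main fit called 18 members higher and 8 lower (863 and 460 of all 11946 genes tested). With no replicate block these became 5 and 0 (all genes 362 and 32). After scaling to the T cell markers they were 71 and 0 (all genes 3761 and 16). Replicates 3 and 4 alone gave 8 and 1 (all genes 590 and 249), and median ratio scaling 22 and 3 (1022 and 354). In replicates 1 and 2 alone they were 19 and 0 (all genes 970 and 178). With single libraries left out there were between 7 and 26 higher and between 1 and 4 lower members. Over all genes these fits called 564 to 1246 higher and 160 to 456 lower. The counts of higher members rose and fell with those of all genes. The counts of lower members did not always do so. Without either library of pair 4 they fell from 8 to 4, while all genes had 456, against 460 in the main fit. The T cell marker scaling gave a median over all genes of 0.63, against -0.11 in the deposited scale, and the median of the members to 0.69. Its log2 fold changes were of the other sign for Slc16a1 (0.025), Slc17a9 (0.062), Slc28a2 (0.087), Slc9a3r1 (0.15), Slc20a1 (0.71), Slc25a4 (0.46), Slc25a5 (0.62) and Slc44a2 (0.61). In replicates 1 and 2 alone Slc20a1 was at 0.058. Slc33a1, not called otherwise, was called higher after T cell marker scaling (1.46). The T cell marker scaling raises positive libraries by construction, since their markers were lower. The cause of the changes in the other settings was not tested, and the subsets also hold fewer libraries. With pseudocounts of 0.1 and 5, no filter, a 5 RPKM filter and quantile normalization, the counts stayed within 1.5 times (13 to 19 higher, 7 or 8 lower). Over all genes tested, these settings called 654 to 981 higher and 418 to 511 lower. In this balanced design the log2 fold changes are the same with and without the block by construction, so the block bears on p-values only. Depth limits the weakly expressed members most in negative replicate 4, which had 3060000 reads.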
